A study of Mus musculus with 12 samples.

Results

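Interscapular brown adipose tissue (BAT) was compared with epididymal white adipose tissue (EWAT), the fat pad attached to the epididymis, across all genes. The 3 RNA-seq libraries titled for BAT and the 3 titled for EWAT were taken, which are 6 of the 12 libraries in the series. Both groups came from wild type male C57BL/6J mice aged 6 to 10 weeks on a standard low-fat rodent diet. All 12 libraries, BAT and EWAT included, carry the label of surgical denervation, in which the nerves to a fat pad are cut, and no innervated tissue was analysed here, so the values describe denervated fat only and an effect of denervation cannot be measured. The other 6 libraries are inguinal (IWAT) and retroperitoneal (RWAT) white fat, 3 each, and are used below only to place the difference between BAT and EWAT. Whether the replicates of 1 depot are different mice is not stated in the labels, so the p-values cover only the variation among these samples, and it may be technical.

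Brown adipocytes hold many mitochondria and burn fatty acids and glucose to make heat, through the uncoupling protein of their inner mitochondrial membrane. Sympathetic nerves that release noradrenaline onto beta-adrenergic receptors are the usual trigger of this programme. White adipocytes of the epididymal pad store triglyceride in 1 large droplet, and the pad, which lies in the abdominal cavity, is covered by mesothelium, a thin epithelium that interscapular fat lacks. The depots also arise from different parts of the embryo and keep different sets of positional transcription factors.

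Total RNA depleted of ribosomal RNA was read as single-end reads of 75 bases. The 3 BAT libraries held 20673778, 17599960 and 21057834 estimated counts and the EWAT libraries 16562186, 20219615 and 16358051. Transcripts of the mitochondrial genome took 13.0% to 19.0% of the counts in BAT and 3.56% to 4.87% in EWAT. Levels below are in CPM, a gene's count per 1000000 counts of its library, after scaling by TMM, a factor that corrects for differences in composition between libraries. A count of 0 allows up to 3 counts, or 0.147 to 0.236 CPM in BAT and 0.129 to 0.158 CPM in EWAT, and this floor covers counting error only. These are bulk tissue samples, so fewer cells of a type and less RNA per cell cannot be told apart.

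The labels fit the defining genes of each depot, with reservations on both sides. Ucp1, the uncoupling protein, was read in all 3 BAT libraries, at 2962, 32.2 and 702 CPM, and lay under the floor in all 3 EWAT libraries. Its level in BAT replicate 2 was below the 47.6 and 130 CPM of IWAT replicates 1 and 2. RNA of neighbouring tissue was present in libraries of both depots. The 26 skeletal muscle markers summed to 24231, 17032 and 2840 CPM in BAT replicates 1 to 3, and to 31.7, 39.4 and 25.5 CPM in the EWAT libraries. All 24 muscle markers that could be tested were higher in BAT (median log2 fold change 9.10), among them titin (Ttn, 7484, 4779 and 795 CPM against 8.81, 11.6 and 8.602 CPM) and the fast myosin Myh4 (2680, 2409 and 362 CPM against 0.0311, 0.0428 and 0 CPM). Of these markers edgeR called none (0.783% of all 19154 genes tested were called, as given below), 24 had an unadjusted p under 0.05, DESeq2 called 24 and limma-voom 0. In EWAT, the 2 epididymal secretory genes Crisp1 and Adam7 summed to 1358 CPM in replicate 1, to 0 in replicate 2 and to 0.400 in replicate 3. The 3 spermatid genes Prm1, Prm2 and Tnp1, which pack sperm DNA, summed to 0.211, 184 and 20.6 CPM in the EWAT libraries and to at most 0.0654 CPM in BAT. Counts of calls are also given without BAT replicates 1 and 2 and without EWAT replicates 2 and 3, 2 settings chosen after seeing the data. They do not remove all such RNA. BAT replicate 3, which stays, held 2840 CPM of muscle markers, and EWAT replicate 1 held 1358 CPM of the 2 epididymal genes.

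**Figure D1:**
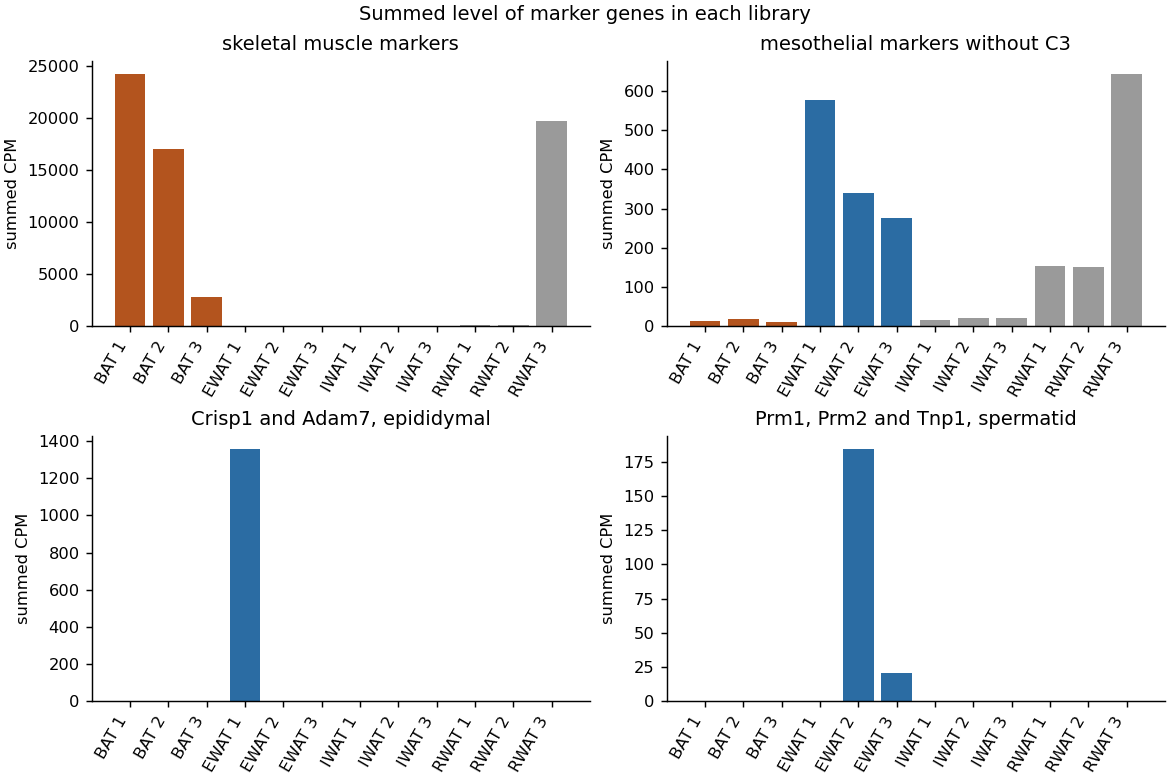
Summed CPM (vertical axis, linear, from 0) of 4 sets of marker genes in each of the 12 libraries, with BAT in brown, EWAT in blue and the other depots in grey. Muscle markers sum to 24231, 17032 and 2840 CPM in BAT, spermatid genes are read in EWAT replicates 2 and 3, epididymal genes in EWAT replicate 1, and mesothelial markers in every EWAT library. Muscle markers also reach 19667 CPM in RWAT replicate 3. Mesothelial markers, drawn without C3, sum to 153, 150 and 644 CPM in RWAT, against 576, 340 and 275 CPM in EWAT.

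The difference between the depots was spread over many genes, of which few passed the adjusted threshold. In edgeR's quasi-likelihood test, fitted on all 12 libraries with 1 coefficient per depot, 150 of 19154 genes (0.783%) had an adjusted p (Benjamini-Hochberg) under 0.05, and only such genes are termed called. Of these, 78 (0.407%) were higher in BAT and 72 (0.376%) higher in EWAT. Without TMM (1.22% called) the split was 62 higher in BAT and 171 higher in EWAT, and the median log2 fold change of all genes moved from -0.08 to -0.60. At an unadjusted p under 0.05 there were 5300 genes (27.7%), the share to set beside such counts in each list. All 150 called genes had BAT and EWAT libraries that did not overlap. So did many genes that were not called: over all genes tested, 3661 (19.1%) had every BAT library above every EWAT library, and 3396 (17.7%) the reverse. Of the called genes 138 were protein-coding. The median log2 fold change was 2.85 among those higher in BAT and -4.96 among those higher in EWAT.

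How many genes passed depended on the libraries in the fit. Leaving out 1 library gave 8, 6 and 1996 calls without BAT replicate 1, 2 or 3, and 1159, 6 and 24 without EWAT replicate 1, 2 or 3. It gave 10, 16 and 101 without IWAT replicate 1, 2 or 3, and 1420, 131 and 372 without RWAT replicate 1, 2 or 3. Without BAT replicates 1 and 2 there were 4 calls (0.018%), and without EWAT replicates 2 and 3 there were 49 (0.236%). DESeq2 called 3434 genes, 15.8% of those it gave an adjusted p, which is the share to set beside its counts in each list. In limma-voom 19 (0.0992%) were called, and in edgeR on the 6 BAT and EWAT libraries alone 1051. All 150 genes kept the sign of their fold change in every one of these fits that gave them a value. Their BAT and EWAT libraries did not overlap, so fits on the same libraries could hardly reverse a sign. Zfhx4, Mmp3, Lhx8 and Tbx15, all higher in BAT, were called in all 12 fits with 1 library left out. They were also called under the other 9 alternatives.

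**Figure D2:**
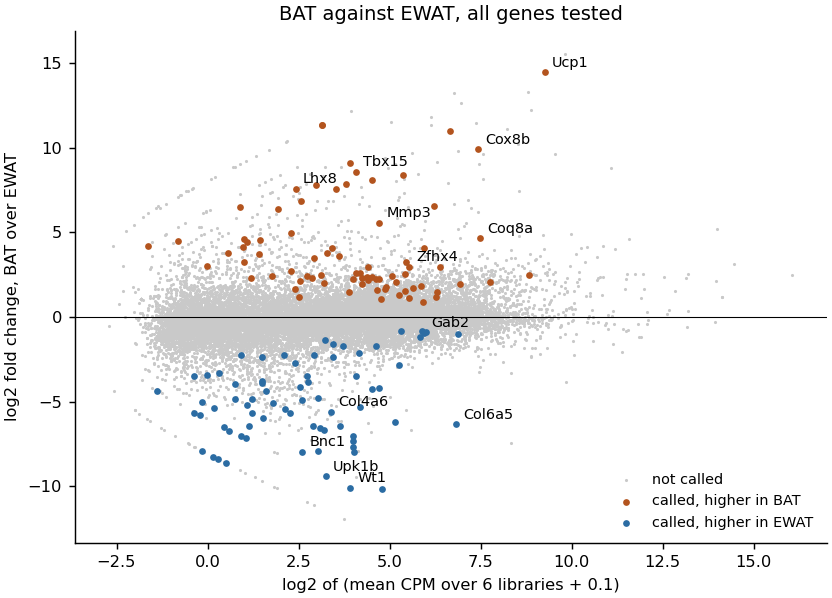
Each point is 1 of 19154 genes, with the log2 of (mean CPM over the 6 libraries plus 0.1) on the horizontal axis and the log2 fold change of BAT over EWAT on the vertical axis. The 78 genes called higher in BAT (brown) and the 72 called higher in EWAT (blue) lie above and below 0, at low and at high levels, with Ucp1 at 14.47 and Wt1 at -10.09.

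These 4 genes were high in all 3 BAT libraries and low in all 3 EWAT libraries. Zfhx4, a zinc finger homeobox protein (chromosome 3, 5218526 to 5415857 on GRCm38), held 61.2, 106 and 81.3 CPM in BAT and 12.7, 9.85 and 8.702 CPM in EWAT, 7.94-fold higher in BAT by the means (log2 fold change 2.99, SE 0.23, edgeR adjusted p = 0.00121). Mmp3, the matrix metalloproteinase stromelysin (chromosome 9, 7445822 to 7455975), held 44.7, 55.5 and 54.1 CPM in BAT and 0.957, 1.11 and 1.15 CPM in EWAT. Its log2 fold change was 5.58 (SE 0.45, edgeR adjusted p = 0.00121), a 48.0-fold difference of means. Both genes were high in all 3 BAT libraries, including replicate 2, where Ucp1 was lowest. Lhx8, a LIM homeobox factor used as a marker of brown preadipocytes, held 5.904, 14.3 and 11.3 CPM in BAT and was under the floor in all EWAT libraries, at 0, 0.0856 and 0.05001 CPM. Tbx15, a T-box factor of dorsal mesenchyme, held 36.8, 38.3 and 24.7 CPM against 0.0533, 0.171 and 0 CPM, with EWAT replicates 1 and 3 under the floor. Over these 21 alternatives the adjusted p of these 4 genes reached at most 0.0196, or 0.0465 for Tbx15 in limma-voom.

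The sequence just before the start is shown for 4 genes with large differences, 3 towards BAT and 1 towards EWAT, because each was near 0 or low in every library of the other depot. Each is the 150 bases before the transcription start given by RefSeq on GRCm38.p6, written 5′ to 3′ on the gene's strand. Capitals mark a match to AGGTCA, the half-site bound by many nuclear receptors, or to CCAAT, searched on both strands.
Ucp1, higher in BAT, chr8:83290198-83290347 (plus strand): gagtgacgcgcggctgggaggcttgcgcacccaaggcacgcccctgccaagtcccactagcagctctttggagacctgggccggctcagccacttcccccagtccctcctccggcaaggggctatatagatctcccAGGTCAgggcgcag
Cox8b, higher in BAT, chr7:140900447-140900596 (minus strand): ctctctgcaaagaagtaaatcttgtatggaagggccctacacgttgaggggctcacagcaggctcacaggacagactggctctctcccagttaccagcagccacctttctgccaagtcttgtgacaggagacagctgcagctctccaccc
Mmp3, higher in BAT, chr9:7445672-7445821 (plus strand): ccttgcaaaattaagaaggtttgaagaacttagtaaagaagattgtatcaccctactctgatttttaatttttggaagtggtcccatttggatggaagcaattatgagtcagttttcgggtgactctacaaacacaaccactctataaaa
Col4a6, higher in EWAT, chrX:141474077-141474226 (minus strand): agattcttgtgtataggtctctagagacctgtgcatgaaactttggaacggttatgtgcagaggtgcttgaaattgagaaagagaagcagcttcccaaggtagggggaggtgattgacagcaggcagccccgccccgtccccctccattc
The Ucp1 window held 1 half-site on the strand shown, and the other 3 windows held neither motif. In windows of the same length, AGGTCA or its reverse complement was present for 9.79% of the 27025 genes in the RefSeq table and for 8.05% of the 12322 tested genes matched to it, and CCAAT for 27.7% and 31%. Of the 55 matched genes called higher in BAT, 9 (16.4%) held AGGTCA and 12 (21.8%) CCAAT. Of the 49 called higher in EWAT, 6 (12.2%) held AGGTCA and 4 (8.16%) CCAAT. No test was made of these shares. A match describes letters in this window only.

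Genes of brown adipocyte thermogenesis were higher in BAT as a group. All 28 members of the list could be tested. Of these, 8 (Ucp1, Cox8b, Elovl3, Slc27a2, Cpn2, Cox7a1, Ppargc1a and Ebf2) rose, against 0.407% of all genes, and none fell. In 26 every BAT library lay above every EWAT library, against 19.1% of all genes. The list's median log2 fold change was 4.74, against -0.08 over all genes tested. In DESeq2 25 members were called, in limma-voom 1, and without BAT replicates 1 and 2 none, with a median of 4.15. Ucp1 had a log2 fold change of 14.47 (SE 2.54, edgeR adjusted p = 0.0418), a fitted value that depends on the prior count added to EWAT libraries of 0, 0.0856 and 0.05001 CPM. It was called under 13 of 21 alternatives, with an adjusted p of up to 0.16 without EWAT replicate 2. Elovl3, an elongase of very long chain fatty acids, held 75.9, 2.49 and 11.8 CPM in BAT and 0, 0.0856 and 0.05001 CPM in EWAT (log2 9.11, edgeR adjusted p = 0.0496), where every library was under the floor. Slc27a2, which activates very long chain fatty acids, held 100.2, 4.12 and 32.2 CPM against 0.0528, 0.257 and 0.15 CPM (log2 8.11, edgeR adjusted p = 0.0409). For these 3 genes the BAT libraries ranged over more than an order of magnitude, and the EWAT libraries were near or under the floor.

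Subunits and regulators of mitochondria were among the called thermogenic genes. Cox8b, a cytochrome c oxidase subunit that muscle and brown fat use, held 803, 88.9 and 142 CPM in BAT and 0.528, 0.128 and 0.4001 CPM in EWAT (log2 9.94, SE 1.87, edgeR adjusted p = 0.04802). Cox7a1, a second such subunit, held 351, 22.96 and 69.96 CPM against 1.95, 1.199 and 1.45 CPM (log2 6.59, SE 1.17, edgeR adjusted p = 0.0426). Muscle also makes both. Its markers summed to 24231, 17032 and 2840 CPM in the same BAT libraries, and their part in these 2 results was not tested. Ppargc1a, the coactivator that drives mitochondrial biogenesis, held 30.7, 14.9 and 14.97 CPM in BAT and 1.05, 1.72 and 0.751 CPM in EWAT (log2 4.09, edgeR adjusted p = 0.0473), 17.2-fold higher by the means. Ebf2, a factor that sets up brown adipocyte fate, held 65.8, 66.2 and 43.7 CPM against 17.5, 11.99 and 12.1 CPM, 4.22-fold higher (log2 2.08, SE 0.29, edgeR adjusted p = 0.0285). Of the 8, Ebf2 had the most even BAT libraries. Without EWAT replicate 2 its adjusted p was 0.114, and that of Cox8b 0.184.

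Several well known brown fat genes were separated between the depots but did not pass. Cidea, a lipid droplet protein, held 853, 52.1 and 236 CPM in BAT and 0.106, 3.77 and 0 CPM in EWAT (log2 8.16, edgeR adjusted p = 0.0768). Dio2, which activates thyroid hormone, held 121, 7.98 and 44.8 CPM against 0.9497, 0.942 and 5.798 CPM (edgeR adjusted p = 0.0703), the proton channel Otop1 239, 17.1 and 36.7 CPM against 0.106, 0.0856 and 0.15 CPM (edgeR adjusted p = 0.0562) and the potassium channel Kcnk3 229, 65.9 and 62.6 CPM against 5.22, 1.84 and 3.06 CPM (edgeR adjusted p = 0.0639). In all 4 every BAT library lay above every EWAT library, BAT replicate 1 was highest, and the BAT libraries were far apart. Prdm16, a determinant of brown fate, held 20.5, 10.7 and 10.7 CPM against 3.43, 3.297 and 2.801 CPM (log2 2.13, edgeR adjusted p = 0.0638). DESeq2 called all 5 of these genes. Bmp8b, a secreted factor of brown fat, was low in both depots, at 1.23, 0.518 and 0.910 CPM in BAT and 0.972, 0.651 and 0.652 CPM in EWAT, and its libraries overlapped.

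The 3 BAT libraries were unlike each other in this programme. Of the 28 thermogenic genes, 26 were highest in BAT replicate 1 and 23 lowest in BAT replicate 2, and the median ratio of the highest to the lowest BAT library was 9.79. In EWAT that ratio was 2.30. The summed level of the list was 9001, 1029 and 2134 CPM in BAT replicates 1, 2 and 3, against 198, 173 and 149 CPM in EWAT. Developmental genes varied far less, with a median ratio of 1.84 for the brown lineage transcription factors and 1.74 for the subcutaneous factors in BAT. On the first principal component of the 12 libraries, which held 47.8% of the variance, the BAT libraries lay at -151, -98.2 and -8.52 and the EWAT libraries at 66.2, 73.2 and 93.2.

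**Figure D3:**
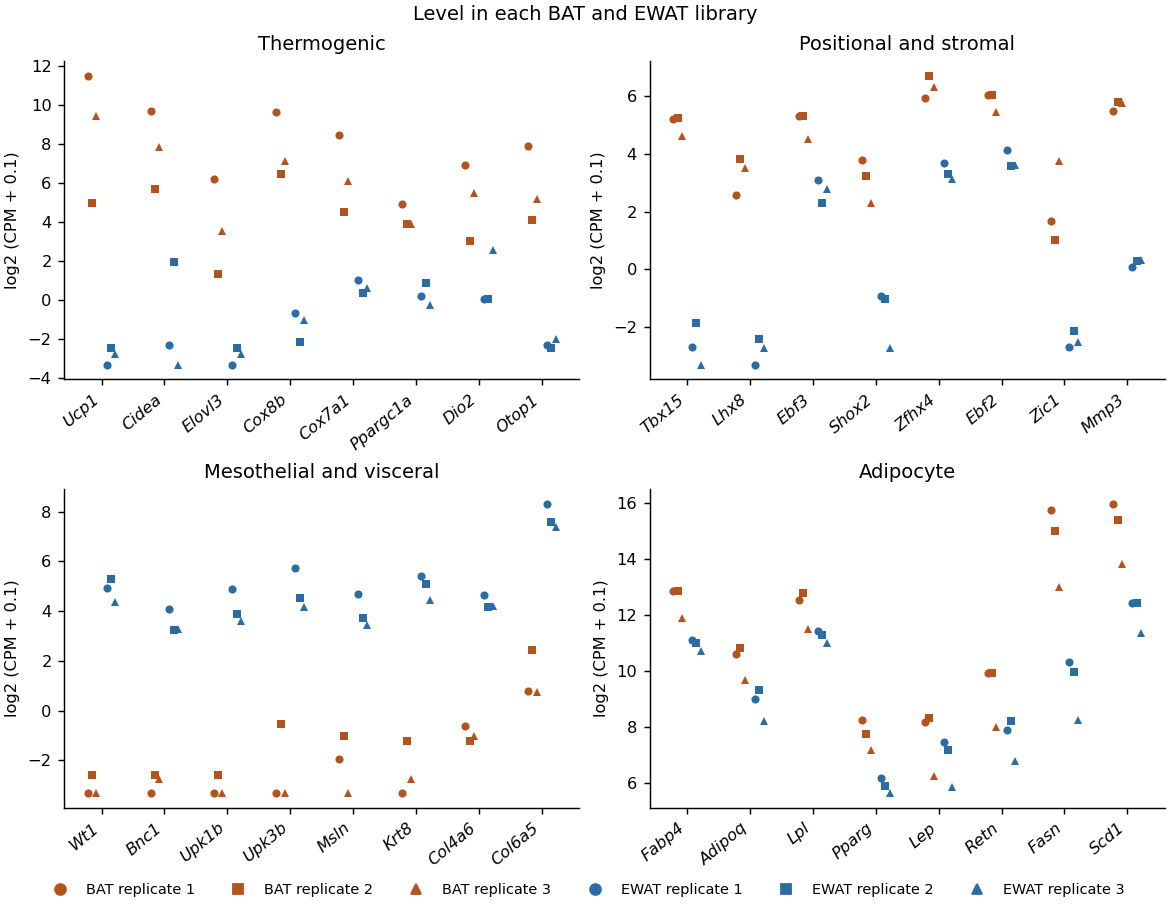
Level of 32 genes in the 3 BAT libraries (brown) and the 3 EWAT libraries (blue), as the log2 of CPM plus 0.1, with 1 symbol per replicate number. Thermogenic genes spread widely over the BAT libraries, whereas Zfhx4, Tbx15 and Mmp3 lie close together in both depots and mesothelial genes are near the bottom of the scale in BAT.

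The respiratory chain lists, which leave out the called subunits Cox8b and Cox7a1, were higher in BAT and had no member called by edgeR. Of 58 nuclear-encoded subunits of the respiratory chain, 57 had all BAT libraries above all EWAT libraries, against 19.1% of all genes, and the median log2 fold change was 2.21. In edgeR no subunit was called and 57 had an unadjusted p under 0.05, while DESeq2 called 56 and limma-voom 0. The ATP synthase subunit Atp5b held 5522, 1934 and 1394 CPM in BAT and 555, 615 and 531 CPM in EWAT (log2 2.38, SE 0.69, edgeR adjusted p = 0.0791), and the succinate dehydrogenase subunit Sdha 2013, 741 and 541 CPM against 174, 187 and 157 CPM (log2 2.67, edgeR adjusted p = 0.07096). All 58 subunits were highest in BAT replicate 1. So were all 24 tested skeletal muscle markers, which summed to 24231, 17032 and 2840 CPM in the BAT libraries, and muscle is rich in mitochondria as well. The part of muscle RNA in the differences of the respiratory chain, the tricarboxylic acid cycle, fatty acid oxidation and glycolysis was not tested. The 13 mRNAs of the mitochondrial genome were all separated too (median 2.44), with mt-Co1, a cytochrome c oxidase core subunit, at 38452, 20093 and 19269 CPM in BAT and 6057, 6049 and 5499 CPM in EWAT (edgeR adjusted p = 0.0927). None of them was called by edgeR, 13 had an unadjusted p under 0.05, and DESeq2 called 12 and limma-voom 0. With BAT replicates 1 and 2 left out, the median was 1.38 for the nuclear-encoded subunits and 1.92 for the mitochondrial mRNAs.

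Enzymes that feed the respiratory chain were mostly higher in BAT too. All 18 genes of the tricarboxylic acid cycle and pyruvate entry were separated with BAT higher (median log2 2.77), as were 28 of 30 genes of fatty acid oxidation (median 2.35). The same was true of 19.1% of all genes. Pdha1, a subunit of pyruvate dehydrogenase, held 2008, 976 and 557 CPM against 143, 133 and 113 CPM (log2 3.19, edgeR adjusted p = 0.0693). Hadhb, of the mitochondrial trifunctional enzyme, held 1965, 346 and 484 CPM against 93.4, 90.6 and 91.1 CPM (log2 3.34, edgeR adjusted p = 0.0667). The 1 gene separated in the other direction was Cpt1a, one of 2 isoforms of the enzyme that admits fatty acids to mitochondria, which was lower in every BAT library. In edgeR 0 of the 18 and 0 of the 30 were called, with 18 and 30 at an unadjusted p under 0.05. DESeq2 called 18 and 25 (24 of them higher in BAT), and limma-voom 0 and 0.

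The balance between paralogs also differed when compared per transcript length, on the authors' deposited TPM. Cpt1b, the isoform of muscle and brown fat, made up 97.6%, 66.3% and 74.2% of the summed TPM of Cpt1b and Cpt1a in BAT, and 2.46%, 18.6% and 6.26% in EWAT. The insulin-responsive glucose transporter Slc2a4 was 98.5%, 97.3% and 91.1% of its sum with Slc2a1 in BAT and 56.2%, 47.2% and 28.8% in EWAT. Cox8b was 60.1%, 28.7% and 48.9% of its sum with the broadly expressed Cox8a in BAT and under 1% in EWAT, at 0.797%, 0.178% and 0.698%. Cox7a1 was 63.3%, 23.0% and 51.6% of its sum with Cox7a2 in BAT and 6.77%, 3.89% and 5.14% in EWAT. In each of these 4 pairs the BAT and EWAT libraries did not overlap. Among the uncoupling proteins, Ucp1 had 1191, 21.7 and 563 TPM in BAT, while Ucp2, found in many tissues and in macrophages, had 48.9, 95.6 and 262 TPM there and 435, 477 and 566 TPM in EWAT. In BAT replicate 2 the level of Ucp1 was thus below that of Ucp2. Muscle makes Cpt1b, Slc2a4, Cox8b and Cox7a1 as well. Its markers summed to 24231, 17032 and 2840 CPM in BAT replicates 1, 2 and 3, while the shares of Cpt1b, Cox8b and Cox7a1 were lowest in BAT replicate 2. The part of muscle RNA in these shares was not tested.

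Genes of lipid synthesis were abundant in BAT and much lower in EWAT, although none passed. The 25 genes of de novo lipogenesis and triglyceride synthesis summed to 164506, 100913 and 31353 CPM in BAT and to 9372, 9034 and 4452 CPM in EWAT. Of the 25, 21 were separated with BAT higher, against 19.1% of all genes, and the median log2 fold change was 3.02. Stearoyl-CoA desaturase Scd1 alone held 63838, 42411 and 14529 CPM in BAT and 5497, 5500 and 2653 CPM in EWAT (log2 3.15, SE 1.32, edgeR adjusted p = 0.157). Fatty acid synthase, Fasn, held 55177, 32584 and 8260 CPM against 1279, 1007 and 308 CPM (log2 5.21, SE 1.77, edgeR adjusted p = 0.104), and acetyl-CoA carboxylase, Acaca, 9933, 6048 and 1664 CPM against 291, 298 and 143 CPM (log2 4.59, edgeR adjusted p = 0.0974). BAT replicate 3 was lowest of the 3 BAT libraries for all 25 genes, and the highest-to-lowest ratio within BAT had a median of 4.44. In edgeR none of the 25 was called and 21 had an unadjusted p under 0.05, while DESeq2 called 18 and limma-voom 0. With BAT replicate 3 as the only BAT library the median was 1.38. Of 23 genes of glucose uptake and glycolysis, 13 were separated with BAT higher (median 1.72), against 19.1% of all genes. In edgeR none of the 23 was called and 15 had an unadjusted p under 0.05, while DESeq2 called 12 (11 of them higher in BAT) and limma-voom 0. Aldolase A held 5952, 2256 and 1119 CPM against 568, 658 and 594 CPM (edgeR adjusted p = 0.0878), whereas the libraries of pyruvate kinase, Pkm, overlapped (2687, 694 and 716 CPM against 639.6, 818 and 887 CPM).

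**Figure D4:**
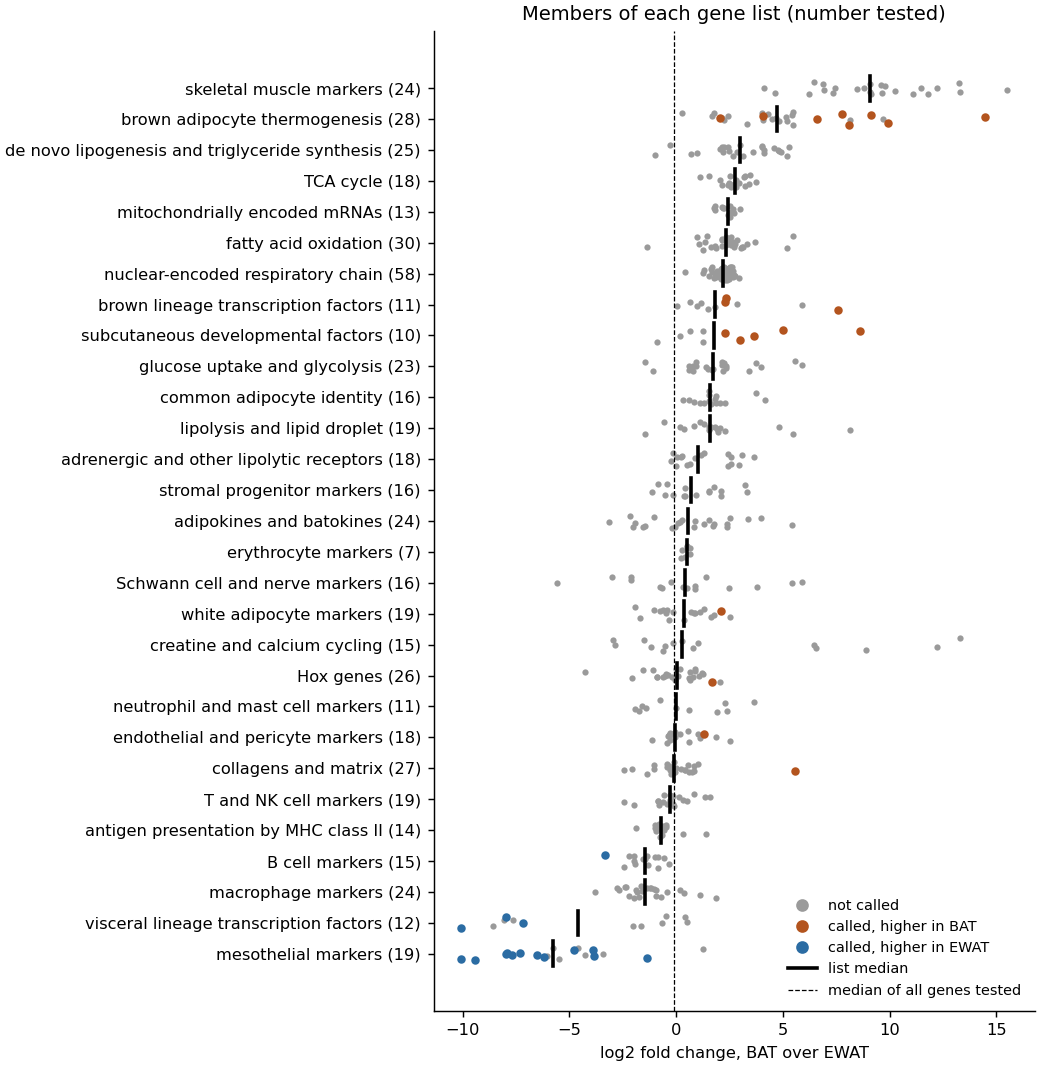
Log2 fold change of BAT over EWAT (horizontal axis) for every tested member of 29 gene lists, ordered by list median (black bar), with called members in brown or blue and the median of all genes (-0.08) as a dashed line. Lists of mitochondria and lipid synthesis lie to the right with no called member. Mesothelial markers and visceral factors lie to the left with 12 and 3 called members, Wt1 and Bnc1 counted in both, against 0.376% of all genes.

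Positional transcription factors separated the depots in both directions. Of 10 tested members of the subcutaneous developmental list 5 rose in BAT, against 0.407% of all genes, and none fell (median log2 1.77). Tbx15, Shox2, Zfhx4 and En1 were among the 5. DESeq2 called 7 and limma-voom 3, and 1 was called both without BAT replicates 1 and 2 and without EWAT replicates 2 and 3. Shox2, a short stature homeobox factor, held 13.9, 9.37 and 4.85 CPM against 0.422, 0.385 and 0.05001 CPM (log2 4.99, SE 0.76, edgeR adjusted p = 0.0324, up to 0.131 without EWAT replicate 2). Engrailed 1, En1, held 3.302, 3.27 and 4.29 CPM against 0.891, 0.5995 and 0.7002 CPM (log2 2.30, edgeR adjusted p = 0.0359). Of 11 tested brown lineage factors 3 rose, Lhx8, Ebf3 and En1 (median 1.83), against 0.407% of all genes. Ebf3 held 40.3, 40.2 and 23.02 CPM against 8.52, 4.81 and 6.81 CPM (log2 2.36, edgeR adjusted p = 0.0485). Zic1, a zinc finger factor of the brown lineage, was separated at 3.099, 1.902 and 13.3 CPM against 0.0554, 0.128 and 0.07502 CPM but did not pass (edgeR adjusted p = 0.0562, called by DESeq2). Its EWAT libraries were all at or under the floor.

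Factors of visceral fat and its mesothelium went the other way. Of 12 tested visceral lineage factors 3 were called higher in EWAT (Wt1, Bnc1 and Gata5), against 0.376% of all genes, and none in BAT. The median log2 fold change was -4.60. DESeq2 called 7, with a list median of -2.08, and limma-voom 0. Without EWAT replicates 2 and 3 there were 2 calls, and without BAT replicates 1 and 2 none. Wt1, the Wilms tumour factor of mesothelium and visceral preadipocytes (chromosome 2, 105126529 to 105173616), held 0, 0.0654 and 0 CPM in BAT and 30.1, 38.8 and 20.6 CPM in EWAT (log2 -10.09, SE 1.22, edgeR adjusted p = 0.0121). It was called under 17 of 21 alternatives, with an adjusted p of up to 0.0987 without BAT replicate 1. Bnc1, basonuclin, held 0, 0.0654 and 0.0489 CPM against 16.6, 9.34 and 9.602 CPM (log2 -7.96, edgeR adjusted p = 0.0121), and Gata5 0, 0.0654 and 0 CPM against 5.96, 2.57 and 3.24 CPM (edgeR adjusted p = 0.0418). All 3 were under the floor in every BAT library. Tcf21, a marker of visceral preadipocytes, was at 0 in all BAT libraries and at 1.69, 4.796 and 1.05 CPM in EWAT, at least 13.0-fold higher by the floor of 3 counts per library, and did not pass (edgeR adjusted p = 0.0635).

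The Hox genes, which mark position along the body, showed little shift as a group. Of 26 tested, 1 rose in BAT (Hoxc4), against 0.407% of all genes, and none fell. The median was 0.03, and 16 had overlapping libraries. In 7 every BAT library lay above every EWAT library and in 3 the reverse, against 19.1% and 17.7% of all genes. Hoxc4 held 9.45, 9.09 and 4.94 CPM against 3.11, 2.398 and 1.9 CPM (log2 1.66, edgeR adjusted p = 0.0496, up to 0.185 without BAT replicate 1). Hoxc10, a posterior gene, held 0.0787, 0 and 0 CPM in BAT, under the floor, and 0.746, 0.221 and 0.6502 CPM in EWAT (edgeR adjusted p = 0.0678). Without TMM the median of this list was -0.50, with no member higher in BAT and 2 higher in EWAT.

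Mesothelial markers were the list with the most called members. Of 19 markers, all tested, 12 were called higher in EWAT, against 0.376% of all genes, and none in BAT. Wt1 and Bnc1, given above with the visceral factors, are among the 12. In 18 every EWAT library lay above every BAT library, against 17.7% of all genes, and the median log2 fold change was -5.78. DESeq2 called 18 and limma-voom 0, 3 were called without EWAT replicates 2 and 3, and none without BAT replicates 1 and 2. Upk1b, a uroplakin of mesothelial and urothelial cells, held 0, 0.0654 and 0 CPM in BAT and 29.5, 14.8 and 12 CPM in EWAT (log2 -9.42, SE 1.32, edgeR adjusted p = 0.03104). The keratin Krt8 held 0, 0.327 and 0.0489 CPM against 42.2, 33.5 and 21.6 CPM (log2 -7.94, edgeR adjusted p = 0.0361), Upk3b 0, 0.589 and 0 CPM against 53.2, 22.8 and 17.7 CPM (log2 -7.30, edgeR adjusted p = 0.0336) and mesothelin, Msln, 0.157, 0.393 and 0 CPM against 25.96, 12.9 and 10.8 CPM (log2 -6.53, edgeR adjusted p = 0.0418). For these 4 genes the adjusted p was highest without BAT replicate 1, at 0.127 to 0.177. The 1 marker that was not higher in EWAT was complement C3, which adipocytes and macrophages also make. The other 18 markers summed to 14.2, 17.4 and 10.1 CPM in BAT and to 576, 340 and 275 CPM in EWAT. Keratins are also made by the epithelium of the epididymis, whose genes Crisp1 and Adam7 summed to 1358, 0 and 0.400 CPM in the EWAT libraries, and the part of epididymal RNA in these results was not tested.

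Adipocyte genes common to both kinds of fat were somewhat higher in BAT, and none was called. All 16 had a positive log2 fold change (median 1.60), and 11 were separated with BAT higher, against 19.1% of all genes. The count at an unadjusted p under 0.05 was 7 in edgeR, with 6 called by DESeq2 and 0 by limma-voom. The fatty acid binding protein Fabp4 held 7431, 7427 and 3759 CPM in BAT and 2181, 2068 and 1668 CPM in EWAT (log2 1.65, edgeR adjusted p = 0.152), and adiponectin, Adipoq, 1553, 1829 and 814 CPM against 513, 640.1 and 297 CPM (log2 1.53, edgeR adjusted p = 0.206). The master regulator Pparg held 307, 217 and 144 CPM against 72.9, 60.5 and 50.2 CPM (log2 1.86, edgeR adjusted p = 0.111). In all 3 the depots did not overlap, and BAT replicate 3 lay closest to EWAT. BAT replicate 3 was in fact the lowest BAT library for all 16 genes. Lipoprotein lipase, Lpl, and the fatty acid transporter Cd36 had adjusted p-values of 0.396 and 0.707 in edgeR, and the Cd36 libraries overlapped.

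Of 19 genes held to mark white adipocytes, DESeq2 called 2 higher in BAT and 1 higher in EWAT, against 15.8% of the genes it gave an adjusted p. None was called by limma-voom. In edgeR 1 was called, higher in BAT, against 0.407% of all genes. The gene was dermatopontin, Dpt, a matrix protein of fibroblasts, at 329, 340.4 and 379 CPM against 107, 70.7 and 68.5 CPM (log2 2.09, SE 0.38, edgeR adjusted p = 0.0462, up to 0.171 without EWAT replicate 2). The list's median was 0.35, and -0.18 without TMM. Of the 19 members, 14 had overlapping libraries. In 3 every BAT library was higher and in 2 every EWAT library, against 19.1% and 17.7% of all genes. Leptin, Lep, held 289, 319 and 75.9 CPM in BAT and 179, 147 and 58.7 CPM in EWAT (log2 0.83, SE 1.19, edgeR adjusted p = 0.651), resistin, Retn, 972, 971 and 259 CPM against 241, 297 and 110.1 CPM (edgeR adjusted p = 0.262) and angiotensinogen, Agt, 52.2, 49.1 and 11.5 CPM against 77.9, 68.9 and 25.7 CPM (edgeR adjusted p = 0.6005). All 3 overlapped between the depots, and the lowest library of each was replicate 3 in both. Of 24 adipokines and batokines tested, edgeR called none, with 10 at an unadjusted p under 0.05, 9 called by DESeq2 (7 higher in BAT) and 0 by limma-voom. Adipsin, Cfd, the most abundant of them, held 6128, 8545 and 2935 CPM against 854, 1749 and 457 CPM (edgeR adjusted p = 0.127). The neuregulin Nrg4, secreted by brown fat, held 175, 179 and 67.7 CPM against 15.2, 13.0 and 12.2 CPM without passing.

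Genes of lipolysis, and adrenergic and other receptors linked to it, were likewise mostly higher in BAT without a call by edgeR. Of 19 tested genes of lipolysis and the lipid droplet 12 were separated with BAT higher (median 1.56), against 19.1% of all genes. Of the 19, 9 had an unadjusted p under 0.05 in edgeR, with 5 called by DESeq2 and 0 by limma-voom. The droplet coat protein Plin4 (3017, 3659 and 1154 CPM against 1141, 1404 and 667 CPM) and the droplet fusion protein Cidec (1998, 2055 and 750.2 CPM against 529.5, 781 and 321 CPM) overlapped between depots. Of 18 tested adrenergic and other receptors linked to lipolysis edgeR called none, and 8 had an unadjusted p under 0.05. DESeq2 called 7 and limma-voom 0, and the median was 1.01. The beta-3 receptor Adrb3 held 208, 346 and 70.8 CPM in BAT and 46.5, 43.9 and 26.9 CPM in EWAT (log2 2.41, SE 1.09, edgeR adjusted p = 0.179), separated but with BAT libraries far apart. The prostaglandin receptor Ptger3 held 217, 169.6 and 38.6 CPM against 16.4, 6.94 and 10.1 CPM (log2 3.67, edgeR adjusted p = 0.0974), and the natriuretic peptide clearance receptor Npr3 overlapped (197, 241 and 55 CPM against 241, 217 and 95.8 CPM).

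Of 16 tested markers of Schwann cells and nerve none was called by edgeR, 9 had an unadjusted p under 0.05, DESeq2 called 5 (3 higher in BAT) and limma-voom 0. Their median was 0.42, and -0.19 without TMM. S100b, a calcium-binding protein of glia that brown adipocytes also make, held 55.3, 1.96 and 12.5 CPM in BAT and 0.264, 1.03 and 0.3001 CPM in EWAT (log2 5.41, edgeR adjusted p = 0.0564). The myelin genes Pmp22 (177, 165 and 110.4 CPM against 117, 95.5 and 104 CPM) and Mbp (79.9, 32.7 and 34.9 CPM against 39.2, 39.6 and 38.8 CPM) overlapped. Tyrosine hydroxylase (Th), the rate-limiting enzyme of noradrenaline synthesis, was too low to test in either depot.

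In creatine and calcium cycling, proposed routes of heat without Ucp1, 15 genes were tested, edgeR called none, 8 had an unadjusted p under 0.05, DESeq2 called 7 (5 higher in BAT) and limma-voom 0. The 2 with the largest fold changes, muscle creatine kinase Ckm (1493, 1004 and 174 CPM against 0.211, 0 and 0.05001 CPM) and the muscle calcium pump Atp2a1 (1621, 1052 and 166 CPM against 0.121, 0.218 and 0.2501 CPM), are themselves muscle markers and followed the summed muscle level over the BAT libraries. The broadly expressed calcium pump Atp2a2 overlapped, at 402, 194 and 209 CPM against 215, 222 and 238 CPM.

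Macrophage genes were lower in BAT in most cases, without a call. Of 24 markers 20 had a negative log2 fold change, and the median was -1.48. For 13 every EWAT library lay above every BAT library, against 17.7% of all genes. In edgeR none was called and 8 had an unadjusted p under 0.05, against 27.7% of all genes. DESeq2 called 7 (6 higher in EWAT), against 15.8% of the genes it gave an adjusted p, and limma-voom 0. Adgre1, the F4/80 antigen, held 35.3, 60.1 and 291 CPM in BAT and 369, 416 and 489 CPM in EWAT (log2 -1.72, SE 0.83, edgeR adjusted p = 0.202). Osteopontin, Spp1, held 2.83, 3.79 and 358 CPM against 1094, 1380 and 2640 CPM (log2 -3.81, SE 1.93, edgeR adjusted p = 0.22), and the pore-forming protein Mpeg1 30.5, 74.9 and 498 CPM against 678, 872 and 1239 CPM (edgeR adjusted p = 0.171). BAT replicate 3 stood well above the other 2 BAT libraries in all 3, and 21 of the 24 markers were highest there. With it as the only BAT library the list's median was -0.52. The 14 genes of antigen presentation by MHC class II had a median of -0.71, and 10 had overlapping libraries. In 2 every BAT library was higher and in 2 every EWAT library, against 19.1% and 17.7% of all genes. Of the 14, edgeR called none and 3 had an unadjusted p under 0.05, against 27.7% of all genes. DESeq2 called 1, against 15.8% of the genes it gave an adjusted p, and limma-voom 0. Cd74, the invariant chain, held 184, 331 and 397 CPM against 342, 487 and 554 CPM.

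Markers of B cells were lower in BAT on the whole. Of the 15 tested B cell markers all had a negative log2 fold change (median -1.47) and 8 were separated with EWAT higher, against 17.7% of all genes. Cd79a, of the B cell receptor, held 0.315, 0.589 and 0.245 CPM against 1.16, 3.21 and 1.8 CPM and did not pass (edgeR adjusted p = 0.0638). Its levels were within a few counts of the floor in BAT. The immunoglobulin genes behaved differently, since Ighm and Igkc overlapped between the depots. T and NK cell markers (19 tested, median -0.28), neutrophil and mast cell markers (11 tested, median 0.00) and erythrocyte markers (7 tested, median 0.49) had no gene called by edgeR, and without TMM the last 2 medians were -0.52 and -0.09. At an unadjusted p under 0.05 there were 3, 6 and 0 of these, against 27.7% of all genes. DESeq2 called 1, 3 and 0, against 15.8% of the genes it gave an adjusted p, and limma-voom 0 of each.

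Of the vessel, stromal and matrix lists, edgeR called 2 genes, 1 of 18 and 1 of 27, both higher in BAT, against 0.407% of all genes. Other matrix genes outside these lists were called too, among them Dpt, given above, and Tnxb, Col6a5, Col4a5 and Col4a6, given further on. Tek, the angiopoietin receptor of endothelium, was the 1 called gene of 18 endothelial and pericyte markers, at 55.97, 55.9 and 52.2 CPM in BAT and 20, 23.4 and 22.8 CPM in EWAT, 2.48-fold higher (log2 1.31, SE 0.19, edgeR adjusted p = 0.0323, up to 0.114 without EWAT replicate 2). Its levels were even in both depots. The pan-endothelial genes Pecam1 and Cdh5 overlapped, and the list's median was -0.07. Of the 27 genes on the collagen and matrix list, Mmp3 alone passed, and the median was -0.11. Libraries overlapped for 20, with 4 separated towards BAT and 3 towards EWAT, against 19.1% and 17.7% of all genes. Of 16 stromal progenitor markers edgeR called none, 9 had an unadjusted p under 0.05, DESeq2 called 6 and limma-voom 0. Pdgfra, the general marker of fibroblasts and preadipocytes, overlapped at 141, 221 and 220.4 CPM against 131, 151 and 154 CPM (log2 0.42, edgeR adjusted p = 0.394), and Cd34 was separated at 153, 169 and 272 CPM against 123, 92.8 and 92.5 CPM (edgeR adjusted p = 0.101).

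Among called genes whose mean log2 CPM was no lower than 3, predicted genes left out, the 15 with the largest differences towards BAT included Cox8b, Cox7a1, Zfhx4 and Ebf3, described above. Coq8a, a kinase-like protein of coenzyme Q synthesis, held 698, 104 and 228 CPM against 14.1, 16.7 and 9.42 CPM, 25.6-fold higher (log2 4.68, SE 0.91, edgeR adjusted p = 0.0496). The proprotein convertase Pcsk6 held 144, 125 and 79.9 CPM against 8.97, 7.66 and 4.297 CPM, 16.7-fold higher (log2 4.06, SE 0.67, edgeR adjusted p = 0.0361). The tubulin polymerization proteins Tppp (105, 71.3 and 62.8 CPM against 9.81, 10.7 and 4.701 CPM) and Tppp3 (60.1, 42.6 and 65.5 CPM against 8.72, 11.7 and 11.5 CPM) both rose, with log2 fold changes of 3.24 and 2.40. So did the adhesion molecule Cadm3 (log2 2.98), the bicarbonate cotransporter Slc4a4 (2.97), the eosinophil chemokine Ccl11 (2.60), the splicing factor Nova1 (2.59), Tcim (2.55) and the glycosyltransferase Galnt16 (2.35). Tenascin XB, Tnxb, a glycoprotein of the extracellular matrix, was even over the BAT libraries, at 712, 838 and 776 CPM in BAT and 189, 135 and 91.6 CPM in EWAT (log2 2.48, SE 0.48, edgeR adjusted p = 0.0496). Each of these 11 genes was lost from the calls without EWAT replicate 2 or BAT replicate 1, where 6 and 8 genes were called in all.

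Towards EWAT, 12 genes met the same limits. Col6a5, a collagen VI chain, held 1.601, 5.32 and 1.59 CPM in BAT and 318, 189 and 168 CPM in EWAT, 79.4-fold higher in EWAT (log2 -6.31, SE 0.84, edgeR adjusted p = 0.0237, up to 0.114 without BAT replicate 1). On the deposited TPM it was 17.4%, 15.9% and 11.4% of its sum with the common chain gene Col6a1 in EWAT and under 1% in BAT, at 0.257%, 0.643% and 0.0857%. Col4a5, a basement membrane collagen, held 8.27, 7.196 and 12.7 CPM against 82.2, 64.3 and 56.7 CPM (log2 -2.85, edgeR adjusted p = 0.0397). Col4a6, its neighbour on the X chromosome, was chosen after its values were seen because it was the most stable gene higher in EWAT, called under 20 of 21 alternatives. It held 0.551, 0.327 and 0.391 CPM against 24.9, 18.03 and 18.2 CPM, 48.1-fold higher (log2 -5.58, SE 0.56, edgeR adjusted p = 0.00392, and 0.0509 in the 1 fit where it was lost, without BAT replicate 2). Coagulation factor V, F5, held 0.945, 4.37 and 2.69 CPM against 36.9, 73.1 and 39.1 CPM, 18.6-fold higher (log2 -4.21, edgeR adjusted p = 0.0458). The common collagen IV genes Col4a1 and Col4a2, by contrast, overlapped between the depots.

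The other genes higher in EWAT changed by smaller amounts with tight replicates. They were the receptor tyrosine kinase-like gene Ror1 (log2 -1.72), P-selectin, Selp (-1.60), the zinc transporter Slc39a8 (-1.38), Dtx4 (-1.19), Zmiz1 (-1.01), the adaptor Gab2 (-0.93), the kinase Ptk2b (-0.91), the stress sensor of the endoplasmic reticulum Ern1 (-0.85) and the deubiquitinase Mindy1 (-0.80). Gab2 held 38.02, 45.1 and 43.5 CPM in BAT and 69.5, 89.6 and 82.7 CPM in EWAT (SE 0.15, edgeR adjusted p = 0.0361), 1.91-fold higher. Mindy1, the smallest change among called genes, held 41.6, 39.9 and 48.9 CPM against 72.7, 75.5 and 78.6 CPM (SE 0.15, edgeR adjusted p = 0.0496) and was called under 8 of 21 alternatives.

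Some genes called higher in EWAT followed the sperm genes. Atp8b3, Dkkl1, Dnah12, Atp1a4 and Spata24, chosen after their values were seen because they are known from sperm, sperm tails or testis, were called with log2 fold changes of -10.17, -7.92, -4.90, -5.67 and -2.72. Atp8b3 held 0, 0.0654 and 0.0489 CPM in BAT and 2.005, 132 and 30.2 CPM in EWAT, and Dkkl1 0, 0.0654 and 0.0978 CPM against 0.686, 35.7 and 12.1 CPM. All 5 were lowest in EWAT replicate 1, where Prm1, Prm2 and Tnp1 were near 0 as well. The part of sperm RNA in these calls was not tested.

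Levels in the other white depots placed the differences of some single genes. Since they share libraries with the comparison above, only the direct tests of EWAT against IWAT and RWAT are given. That of EWAT against IWAT called 66 of 19154 genes (0.345%) and that of EWAT against RWAT 8 (0.0418%). EWAT was the depot that stood apart for Zfhx4, Mmp3 and Tbx15: each was lower in EWAT than in IWAT (log2 -2.90, -5.80 and -8.19) and than in RWAT (log2 -2.59, -4.16 and -6.99), and edgeR called all 6 differences. Mmp3, for one, held 52.5, 50.7 and 76.5 CPM in IWAT and 21.4, 8.22 and 28.4 CPM in RWAT, against the 0.957, 1.11 and 1.15 CPM of EWAT. Lhx8 was lower in EWAT than in IWAT (log2 -5.96, edgeR adjusted p = 0.0102) but not called against RWAT (log2 -2.08, edgeR adjusted p = 0.371), where it held 0.179, 0.315 and 0.163 CPM. For lists no test was made, and some IWAT libraries reached the level of a BAT library. The thermogenic list summed to 1082, 1224 and 283 CPM in IWAT, against 9001, 1029 and 2134 CPM in BAT. Nuclear-encoded respiratory chain subunits summed to 17943, 13555 and 5058 CPM in IWAT, against 38487, 13440 and 11350 CPM in BAT. For lipid synthesis the sums were 111865, 60215 and 12066 CPM in IWAT, against 164506, 100913 and 31353 CPM in BAT.

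The mesothelial and visceral genes differed between EWAT and IWAT and were read in RWAT as well. Wt1 held 0, 0.0554 and 0.157 CPM in IWAT and 4.05, 10.99 and 34.7 CPM in RWAT. Its difference was called between EWAT and IWAT (log2 8.60, edgeR adjusted p = 0.0115) and not between EWAT and RWAT (log2 0.85, edgeR adjusted p = 0.7903), and the same was true of Bnc1, Upk1b, Upk3b, Krt8, Col4a6 and Col6a5. Ucp1 was called in neither direct test. It held 47.6, 129.8 and 21.5 CPM in IWAT and 12.4, 1.31 and 0.163 CPM in RWAT, against under 0.1 CPM in EWAT (log2 -10.25 and -6.40, edgeR adjusted p = 0.0772 and 0.359). Dpt and Tek were lower in EWAT than in IWAT (log2 -2.62 and -1.20, edgeR adjusted p = 0.0268 and 0.0323), with 699.6, 524 and 289.5 CPM and 49.97, 64.5 and 37.7 CPM in IWAT.

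**Figure D5:**
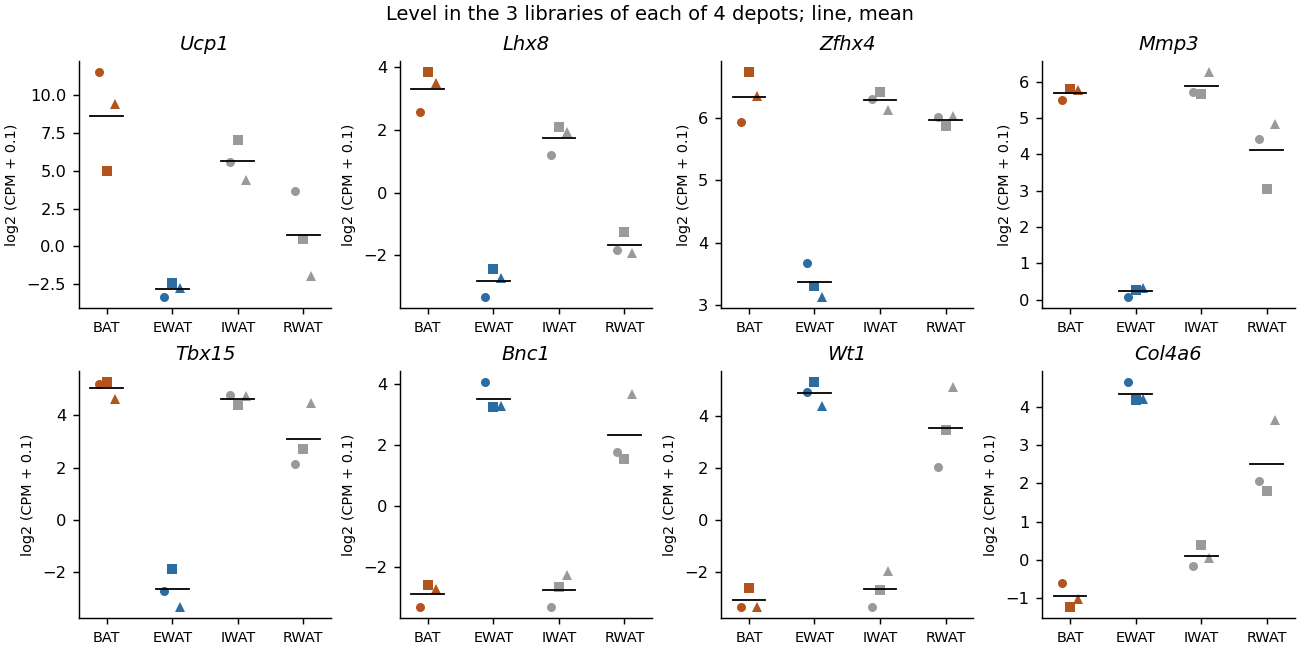
Level of 8 genes in the 3 libraries of each depot, as the log2 of CPM plus 0.1, with the mean of these log2 values as a line, BAT in brown and EWAT in blue. Zfhx4, Mmp3 and Tbx15 are low in EWAT alone, Wt1, Bnc1 and Col4a6 are near the bottom of the scale in BAT and high in EWAT, and Ucp1 varies widely within depots other than EWAT.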

How the data were processed

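Gene expression was measured by RNA-seq of rRNA-depleted RNA in 12 libraries, 3 per depot, per the labels' protocols. Reads were processed with Trimmomatic 0.36, RSEM 1.3.0 and DESeq2 1.10.1 on GRCm38.p4, per the submitters' processing notes. The annotation was not given in the sources used here, nor was the strand setting, so overlapping and antisense genes cannot be told apart. The deposited files hold an expected count, a TPM value and a posterior standard deviation of the count (unit: counts) for each of 47729 genes, per the file headers. TPM was used only to compare paralogs. Of the gene IDs, 47224 were matched to symbols in GENCODE release M21.

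Expected counts were rounded and tested with edgeR 4.0.16 (R 4.3.3) after filterByExpr and TMM scaling, by quasi-likelihood on all 12 libraries with 1 coefficient per depot and Benjamini-Hochberg adjustment over all 19154 genes tested. Sharing the estimate of spread over 4 depots gave 8 residual degrees of freedom and a biological coefficient of variation of 0.4478. No covariate was fitted. Libraries held 15699912 to 25633413 estimated counts, so a count of 0 allows at most 0.191 CPM before TMM scaling. DESeq2 1.42.0 and limma 3.58.1 (voom) were alternatives, with 19 further planned settings that the closing section names. No libraries held identical values, and replicates differed by more than sampling noise.

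Named genes were a core set, up to 15 called genes of largest change per direction with mean log2 CPM no lower than 3 and no overlap, the 4 called members of largest change per direction of each list (or, with none called, the 3 of highest level), and the 5 called genes of highest CPM per direction. Other genes given with values were chosen after their values were seen. The members, the 30 gene lists and the tests were chosen with earlier results of these data known. Library order, counts and medians of a list are descriptions without a test. Results for some genes are not reported here.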

Additional observations from a re-analysis of the deposited data

How the results depend on the processing

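The number of calls changed with the alternative. The direction of all 150 called genes held in every alternative that gave them a value. Since their BAT and EWAT libraries did not overlap, a reversal was hardly possible. Between BAT and EWAT, the 150 calls (78 higher in BAT, 72 higher in EWAT) became 3434 with DESeq2 (1851 and 1583), 19 with limma-voom (11 and 8), 233 without TMM (171 of them higher in EWAT) and 1051 with only the 6 BAT and EWAT libraries (786 and 265). With 1 library left out they ranged from 6 to 1996, with 5 to 1082 higher in BAT and 0 to 1010 higher in EWAT. Without BAT replicate 2, where edgeR called 0 genes higher in EWAT, 2190 such genes had an unadjusted p under 0.05. Without BAT replicates 1 and 2 there were 4, all higher in BAT, and 0 higher in EWAT (801 at an unadjusted p under 0.05), and without EWAT replicates 2 and 3 there were 49 (4 and 45), both settings chosen after seeing the data. RLE scaling (141), the fit without mitochondrially encoded genes (145), the fit with no low-count filter (203), the filter of at least 1 CPM in 3 libraries (140) and a fold change limit of 1 on the log2 scale (145) stayed within 1.5 times the count. The 66 calls between EWAT and IWAT became 1410 with DESeq2, 25 with limma-voom, 11 without BAT replicates 1 and 2, and 7 to 1097 with 1 library left out. The 8 calls between EWAT and RWAT became 788 with DESeq2, 27 without EWAT replicates 2 and 3, and 0 to 804 with 1 library left out. The 0 arose in edgeR without EWAT replicate 2, where 1016 genes had an unadjusted p under 0.05. The cause of these differences was not tested. Leaving 1 library out reduces the replicates of its depot, and the 2 added settings leave 1 library in a depot, which is assumed to vary like the others.

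Replicate numbers are shared between depots, so a fit with the number as a block was run. It called 3542 genes between BAT and EWAT (1859 and 1683), all 150 of the main calls among them, 123 between EWAT and IWAT and 12 between EWAT and RWAT. Deviations from the depot means correlated at 0.0235, -0.0522 and 0.354 between BAT and EWAT libraries of the same number, and BAT replicate 1 correlated best with EWAT replicate 2 (0.185), BAT replicate 2 with EWAT replicate 1 (0.189) and BAT replicate 3 with EWAT replicate 3. These correlations cover BAT and EWAT libraries only. On the first principal component, replicate 1 had the lowest value of its depot in BAT (-151), EWAT (66.2), IWAT (-82.95) and RWAT (-41.7). From replicate 2 to replicate 3 the value rose in BAT, EWAT and IWAT and fell in RWAT (81.3 and 52.2). Whether libraries of the same number share a mouse or a batch is not stated in the labels and was not tested.

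Depth limits genes near the floor of 3 counts, where fold changes depend on the prior count: 11 genes called higher in BAT had at most 3 counts in every EWAT library, and 25 called higher in EWAT had at most 3 in every BAT library. Of the 150 calls, 136 had an adjusted p between 0.03 and 0.05.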

Other observations

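Major urinary protein genes, which encode small carriers of pheromones best known from male liver, were read in BAT and almost absent from EWAT. The 48 annotated Mup genes, pseudogenes included, summed to 352, 436 and 590 CPM in the BAT libraries (459 ± 121, SD, n = 3) and to 1.42, 2.91 and 0.500 CPM in the EWAT libraries. The sum was higher still in IWAT, at 4030, 3568 and 771 CPM, and varied in RWAT, at 54.2, 2.25 and 13.8 CPM. Of the 12 that could be tested between BAT and EWAT, edgeR called 6, all higher in BAT, against 0.407% of all genes. The pseudogene Mup-ps17 was among the 6. Mup10 held 123, 204 and 279 CPM in BAT and 0, 0.248 and 0 CPM in EWAT (log2 fold change 10.98, SE 1.62, edgeR adjusted p = 0.0323). Mup11 and Mup16 were at 0 in all EWAT libraries and at least 120-fold higher in BAT by the floor of 3 counts per library. These genes are near-identical copies, so the division of reads among them is uncertain: the deposited posterior standard deviation was 11.6% of the count for Mup11, 8.40% for Mup16 and 2.13% for Mup10. This family was chosen after its values were seen.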
